A study of Arabidopsis thaliana with 12 samples.

Results

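The response of wild-type Arabidopsis thaliana seedlings (Columbia strain) to salt was examined in 6 ATH1 GeneChips, 3 from salt-treated and 3 from mock-treated seedlings, out of 12 arrays in the series. Seedlings were grown on MS medium and moved at an age of 7 days to fresh plates with 200 mM NaCl (salt) or without it (mock). Whole seedlings were collected 2 days later, and their total RNA gave 1 array for each of 3 independent biological replicates in each group. The members were chosen by these labels alone. The other 6 arrays came from line 20 of the PtSnRK2.7 overexpressor, a single transgenic line that expresses a poplar kinase gene from a constitutive viral promoter, under the same mock and salt conditions. They served here as a yardstick for the single wild-type arrays, whose probe sets and mean change they supplied, and in 1 alternative fit over all arrays. The sources used here do not state how many seedlings went into a sample. In whole seedlings, fewer cells of a type and less RNA per cell cannot be told apart.

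High salt withdraws water from plant cells and brings sodium and chloride into them. Seedlings respond in part through abscisic acid (ABA), a hormone whose receptors release SnRK2 kinases from PP2C phosphatases, after which genes for dehydrins and other protective proteins are transcribed. Jasmonate and salicylic acid are better known from wounding and defense, and jasmonate signaling switches on its own synthesis genes together with the JAZ proteins that repress it. Genes for photosynthesis, cell division and wall loosening serve growth.

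The authors had scaled all arrays to a common mean. The signals are therefore relative, and a signal can be set only against the same probe set on another array. Salt replicate 2 lay closer to the mock arrays than the other salt arrays did, before any gene was singled out. Pearson's r over the log2 signals of all 22746 probe sets was 0.913 to 0.923 between salt replicate 2 and the mock arrays, 0.863 to 0.880 between the other salt arrays and the mock arrays, and 0.951 to 0.956 among the mock arrays. Salt replicate 2 was still closer to salt replicates 1 and 3, with r of 0.931 and 0.935, and r between replicates 1 and 3 was 0.945. These points share their arrays and probe sets, so r is a description. The median SD of log2 signals was 0.363 among the salt arrays and 0.197 among the mock arrays. Among the RNA checks printed on the array, its ratio of 3′ to 5′ signal for GAPDH was 3.25, above the other salt arrays (2.29 and 2.83) and within the range of the mock arrays (2.73 to 3.41). For ubiquitin it was 3.42, between the other salt arrays (2.86 and 3.53) and below the mock arrays (3.97 to 4.07). The part of RNA quality in the difference between salt arrays was not tested.

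The size of the response on each salt array was therefore measured alone. The 2379 probe sets that were called in the overexpressor under salt, 1141 higher (5.02% of those tested) and 1238 lower (5.44%), were taken as a yardstick, because the wild-type arrays had no part in choosing them. On these probe sets the log2 change of each wild-type salt array from the mock mean was regressed on the mean overexpressor change. The slope was 0.930 for salt replicate 1, 0.583 for salt replicate 2 and 0.855 for salt replicate 3. The same slope lay between 0.953 and 1.03 for the 3 overexpressor salt arrays, which define the yardstick. Salt replicate 2 moved in the same direction as the overexpressor at 95.0% of the probe sets, against 98.9% and 98.5% for replicates 1 and 3. It passed a 3-fold change in that direction at 39.4%, against 80.1% and 72.8%. Replicate 2 thus showed a salt response in nearly the same direction and of a smaller size, and it had the smallest change of the 3 salt arrays at 1946 of the 2379 probe sets (81.8%). No test was run on this difference, since a single array has no replicate.

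**Figure D1:**
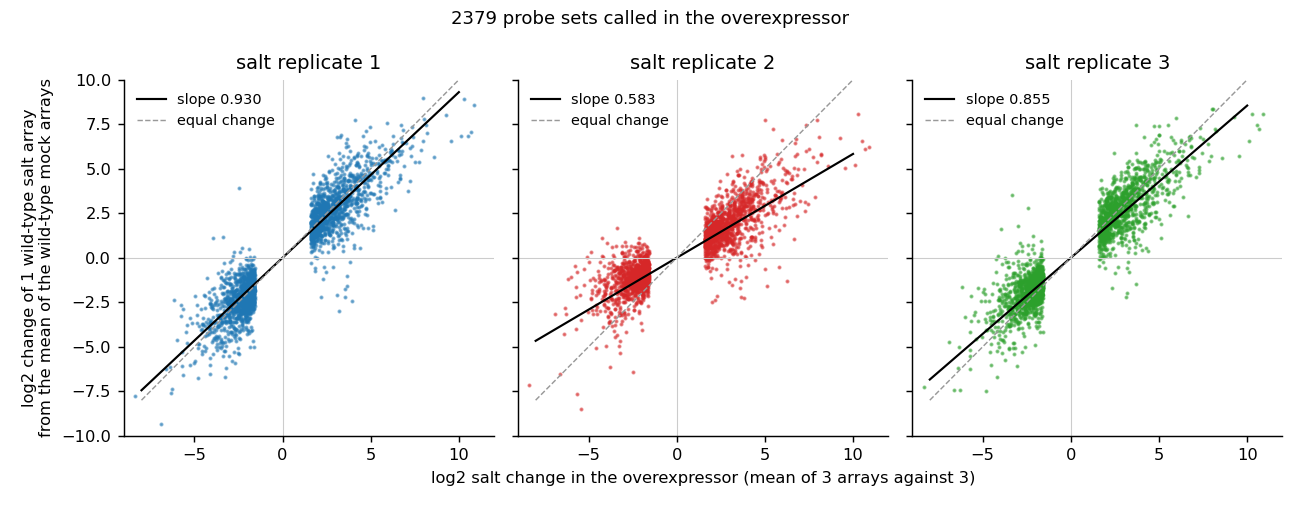
Each point is 1 of 2379 probe sets called under salt in the overexpressor. The x axis gives its mean log2 salt change in the overexpressor and the y axis its log2 change on 1 wild-type salt array from the mean of the wild-type mock arrays. The solid line is the least-squares slope through the origin (0.930, 0.583 and 0.855) and the dashed line marks equal changes. The cloud of salt replicate 2 is flatter than the clouds of replicates 1 and 3.

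Salt changed the wild-type transcriptome in both directions. With the 6 wild-type arrays fitted on their own, 862 probe sets were higher (3.79% of 22746) and 659 lower (2.9%) at a limit of 0.01 on the adjusted p and of 3 on the fold change. All 1521 had 3 salt signals on one side of the 3 mock signals. Such a gap without overlap was itself found at 21.1% of all probe sets upward and 26.8% downward. Without salt replicate 2, 1245 probe sets were called higher and 1404 lower. Without salt replicate 3, the counts were 321 and 154. At the wider limit used below for single genes, an adjusted p under 0.05 from limma over all probe sets with no fold limit, 3089 probe sets were higher (13.6%) and 3834 lower (16.9%). The median change over all probe sets was -0.07 on the log2 scale, and on each salt array alone it was -0.12, -0.03 and -0.02.

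The names of genes came from an annotation table and, for probe sets it did not pair with a gene, from the study's own tables of responsive genes. Those tables were selected by response, most of them in the overexpressor and some in these same wild-type arrays. Counts of list members therefore lean toward responsive genes, and they are set beside the percentages above without reading an excess from them. Of 568 listed genes 198 had a probe set with a name of its own, and 85 of them were higher and 65 lower at an adjusted p under 0.05. Without those named only from the wild-type salt tables, 74 were higher and 65 lower. Each of the 198 had a single named probe set, and such genes are called measured below. The other listed genes may have signals among the 7978 probe sets with no gene or the 557 with several.

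The 12 largest increases were taken among called probe sets paired with 1 gene and above the median signal in the higher group. Salt and mock arrays also had to be without overlap. Of 862 probe sets called higher, 651 were paired with 1 gene. The 12 belonged to 6 named genes and 6 loci without a name. BSMT1, which methylates salicylic and benzoic acid, had signals of 1.98, 3.41 and 23.0 in the mock arrays and of 2609, 1463 and 1438 under salt. The mock signals of BSMT1 lay near the bottom of the range. Its change was 8.36 on the log2 scale (SE 0.83, adjusted p = 0.00086), and 6.18 when signals under the 20th percentile of their array were raised to it. The glycosyltransferase genes UGT73C1 and UGT76E12 changed by 7.63 (SE 0.63) and 7.62 (SE 0.99), or by 5.07 and 6.51 with that floor. The nitrate transporter gene NRT1.8, the repressor gene JAZ7 and the lipid transfer protein gene LTP4 had measurable mock signals and changed by 6.83, 6.35 and 6.21. LTP4 was named only from the table chosen on these arrays. The loci that the sources give no name were AT3G53600 (8.35, or 4.99 with the floor), AT1G76640 (7.38, or 5.33), AT2G36440 (7.34, or 3.13), AT2G38240 (6.65), AT1G57630 (6.58, or 5.66) and AT1G57650 (6.22, or 4.07).

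In this group of 12, salt replicate 2 kept most of the change. The group was chosen by the mean change over all 3 salt arrays, so genes with a weak replicate 2 were less likely to enter it. AT1G76640 changed by 7.35, 7.48 and 7.30 in salt replicates 1, 2 and 3, and the 3 arrays were alike. BSMT1 changed by 8.92, 8.09 and 8.06. UGT76E12 showed the largest gap, with 8.57, 6.22 and 8.07.

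Under the same conditions, with 544 of 659 probe sets called lower paired with 1 gene, the largest decreases included chloroplast genes. PNSL3 and FKBP16-2 encode proteins of the lumenal side of the chloroplast NADH dehydrogenase-like (NDH) complex, which takes part in cyclic electron flow. PNSL3 signals were 1817, 2077 and 1452 in the mock arrays and 19.4, 336 and 64.3 under salt. Of the salt arrays, replicate 2 was the highest. The change was -4.56 (SE 0.88, adjusted p = 0.0080). FKBP16-2 went from 1572, 1991 and 1964 to 47.7, 286 and 47.5, a change of -4.40 (SE 0.64, adjusted p = 0.0030). BHLH101, a transcription factor gene of the iron-deficiency response, had 611, 1263 and 270 in the mock arrays and 19.5, 51.2 and 33.6 under salt, and changed by -4.20 (SE 0.58, adjusted p = 0.0025). Its mock signals spread widely, and the lack of overlap with the salt signals was a condition of its choice. The other 9 of the 12 most negative changes belonged to loci without a name in the sources. Among the 12, AT3G62950 fell the most, from 220, 179 and 165 to 0.868, 1.32 and 1.21, which is -7.39, or -2.95 with the floor. AT1G73600 fell from 2637, 2200 and 2840 to 64.2, 161 and 55.3, a change of -4.94 (SE 0.37). Of the remaining 7, 6 had smaller falls with the floor. They were AT1G13650 (-5.98, or -3.20), AT1G73120 (-5.96, or -3.99), AT4G22460 (-5.15, or -3.34), AT5G62360 (-4.96, or -4.30), AT2G27420 (-4.91, or -3.27) and AT3G46490 (-4.28, or -3.51). AT3G23880 changed by -4.18. AT1G49200 (-4.11, SE 0.26) was added as a gene with a large fall on every salt array.

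Genes of jasmonate synthesis rose on all salt arrays to nearly the same level. Of 14 listed genes 8 were measured and all 8 were higher, with a median change of 2.32. OPCL1 was named through the annotation and the other 7 from the overexpressor tables. The lipoxygenases LOX2, LOX3 and LOX4 start the pathway in the chloroplast. LOX2 had signals of 5377, 6519 and 6967 in the mock arrays and of 16819, 19722 and 22002 under salt. Salt replicate 2 was not the lowest. LOX4 rose from 125, 85.1 and 143 to 2310, 1989 and 2622, a change of 4.32 (SE 0.21, adjusted p = 0.00014), with the 3 salt arrays close together. Next in the pathway, AOS (allene oxide synthase) rose from 1290, 1063 and 1081 to 4450, 4612 and 5161, which is 2.05 (SE 0.13, adjusted p = 0.00022), and the cyclase gene AOC3 changed by 2.18, 2.26 and 2.8 on the 3 salt arrays. OPR3, the reductase of the peroxisome, changed by 2.26, 1.93 and 2.40. OPCL1 and ACX1 act in the shortening of the side chain, and they changed by 2.69 (SE 0.27) and 2.22 (SE 0.25). ACX1 was the member with the widest gap, at 8987, 4482 and 7593 in the salt arrays against 1377 to 1495 in the mock arrays.

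Repressors, turnover genes and targets of jasmonate rose with them. Of 14 measured genes (19 listed), 13 were higher and 1 lower, and the median was 4.09. JAZ proteins bind and repress the transcription factor MYC2 until jasmonate leads to their breakdown. JAZ10 rose from 98.4, 55.8 and 68.6 to 2913, 2315 and 3275, a change of 5.28 (SE 0.23, adjusted p = 0.00014). The salt arrays differed among themselves by much less than they differed from the mock arrays. JAZ1, JAZ2, JAZ5 and JAZ8 rose by 3.98, 2.39, 4.74 and 5.58, and JAZ3, named from the wild-type salt table, by 1.68. JAZ6 rose by 1.90 (SE 0.32, adjusted p = 0.0049) and was the repressor in which replicate 2 lagged most, with 6045, 2667 and 6117 under salt against 1047 to 1388 under mock treatment. MYC2 rose from 290, 274 and 548 to 1525, 1785 and 2512 (2.43, SE 0.30). CYP94B3 and CYP94C1, which oxidize the active jasmonate conjugate, rose by 4.13 (SE 0.75) and 4.05 (SE 0.34). The aminotransferase gene TAT3 had 3698, 5949 and 8850 in the salt arrays and 51.8 to 121 in the mock arrays. It was named from the wild-type salt table. JRG21, named through the annotation, rose by 5.77 (SE 0.62).

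PDF1.2 was the member that fell. It encodes a defensin that is a target of jasmonate and ethylene together. Its signals were 2543, 1790 and 306 in the mock arrays and 207, 174 and 164 in the salt arrays. Mock replicate 3 was far below the other mock arrays but above every salt array. The change was -2.63 (SE 0.70, adjusted p = 0.025), and the call was lost without mock replicate 1 (adjusted p = 0.083), mock replicate 2 (0.10), salt replicate 1 (0.050) or salt replicate 3 (0.086).

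**Figure D2:**
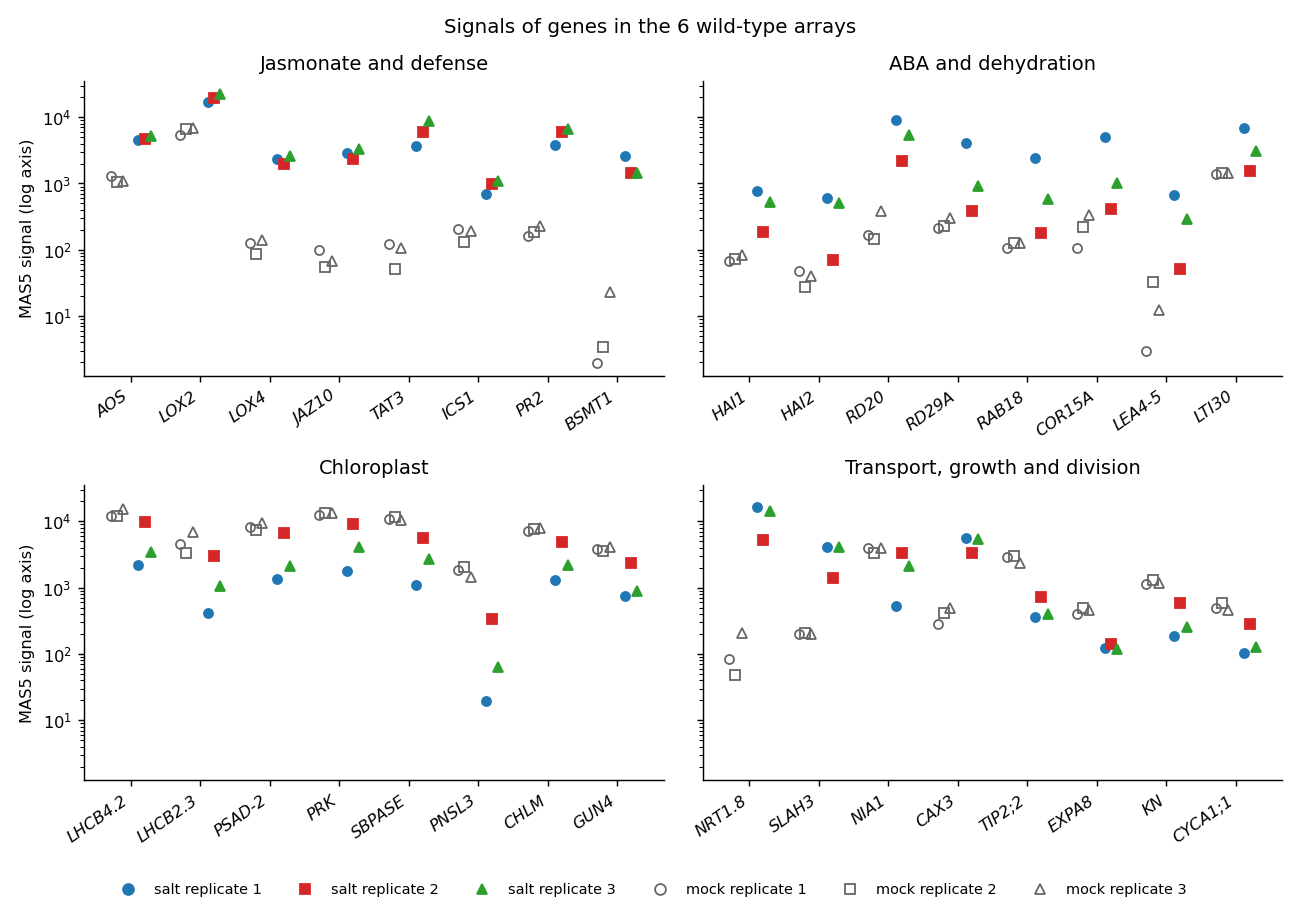
MAS5 signals on a log axis for 32 genes in each of the 6 wild-type arrays. Open grey symbols are the mock arrays, filled symbols the salt arrays, and circles, squares and triangles stand for replicates 1, 2 and 3. The genes were picked for display. Salt replicate 2 (red squares) lies near the other salt arrays for the jasmonate and defense genes drawn. It lies close to the mock arrays for RD29A, RAB18 and LHCB4.2. Jasmonate and defense genes with a weaker replicate 2, such as JAZ6 and PAD3, are not drawn.

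Genes of salicylic acid and defense rose as well. Of 9 measured genes (16 listed) 8 were higher, and the median was 2.39. ICS1 makes the precursor of salicylic acid in the chloroplast, and EDS5 exports it. ICS1 rose from 206, 131 and 191 to 687, 994 and 1098, a change of 2.39 (SE 0.24, adjusted p = 0.00090), and EDS5 rose from 240, 217 and 197 to 715, 824 and 942 (1.92, SE 0.16). In both genes replicate 1, not replicate 2, was the lowest of the salt arrays. SARD1, a transcription factor gene that controls ICS1, had 358, 360 and 647 under salt and 91.8 to 121 under mock treatment. Its relative CBP60G rose by 3.1 (SE 0.24) and the glucanase gene PR2 by 4.79 (SE 0.23), but both were named from the table chosen on these arrays. PAD3 and CYP79B2, genes of camalexin and indole metabolism, rose by 4.75 (SE 0.59) and 2.17 (SE 0.31). PAD3 was among the members with a weaker response of replicate 2, at 11100, 2054 and 7509 against 130 to 269 in the mock arrays. WRKY70 did not pass (0.49, SE 0.20, adjusted p = 0.11), and it passed without salt replicate 2 (0.59, adjusted p = 0.049).

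All 4 measured genes of ethylene synthesis and response (21 listed) were higher, and 2 of them were named from the overexpressor tables. ACS2 and ACS6 encode the enzyme that makes the ethylene precursor. ACS6 rose from 699, 424 and 1176 to 5941, 1627 and 4607, with replicate 2 only a little above the highest mock array. Its change was 2.33 (SE 0.52, adjusted p = 0.014), and without mock replicate 1, mock replicate 2 or salt replicate 3 its adjusted p was 0.052 to 0.061. ACS2, from the wild-type salt table, changed by 5.92 (SE 0.46). The transcription factor genes ERF1 and EIN3 rose by 4.3 (SE 0.74) and 0.64 (SE 0.12), and EIN3 was named through the annotation.

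The phosphatase genes of ABA signaling and the dehydration genes as a list gave a different picture of the 3 arrays. HAI1 and HAI2 encode PP2C phosphatases that ABA induces. HAI2 had 47.5, 27.5 and 39.5 in the mock arrays and 609, 70.7 and 513 in the salt arrays. Replicate 2 was nearer to the mock arrays than to the other salt arrays. HAI1 rose by 2.51 (SE 0.48, adjusted p = 0.0079) and HAI2 by 2.91 (SE 0.76, adjusted p = 0.025), a call lost without any array but salt replicate 2 (adjusted p = 0.063 to 0.095). The receptor gene PYL6 and the kinase gene SNRK2.8 were lower (-1.86, SE 0.34, and -1.68, SE 0.32). Only these 4 of 28 listed core genes had a named probe set, and each was named from the overexpressor tables. CYP707A1, which breaks ABA down, had 97.2 to 114 in the mock arrays and 1595, 685 and 1523 in the salt arrays, and rose by 3.52 (SE 0.32). BGLU18, which frees ABA from its stored conjugate, had 4676 to 7028 in the mock arrays and 15012, 19652 and 16234 in the salt arrays, and replicate 2 was the highest. Its change was 1.53 (SE 0.20, adjusted p = 0.0023).

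Of 13 measured genes for dehydration and cold proteins (23 listed), 5 were higher, none was lower and 8 did not pass. The median change was 2.27 in salt replicate 1, 0.54 in replicate 2 and 1.13 in replicate 3. RD29A, a standard marker of osmotic stress, had 216, 227 and 298 in the mock arrays and 4063, 384 and 913 under salt. All salt signals were above all mock signals, but replicate 2 only slightly. Its change of 2.2 (SE 0.73) gave an adjusted p of 0.056, while it was 2.98 (adjusted p = 0.0027) without salt replicate 2 and 1.28 (adjusted p = 0.042) without salt replicate 1. The dehydrin gene RAB18 had 106, 125 and 128 against 2418, 182 and 592, a change of 2.42 (SE 0.79, adjusted p = 0.053) that became 3.33 (adjusted p = 0.0012) without replicate 2. LTI30, another dehydrin gene, went from 1409, 1461 and 1417 to 6881, 1518 and 3133. Replicate 2 stayed within 0.09 of the mock mean on the log2 scale. COR47, also a dehydrin gene, had 3920 to 4256 in the mock arrays and 4135, 2228 and 2023 under salt (-0.62, SE 0.26, adjusted p = 0.11), and without salt replicate 1 it passed as lower (-0.94, adjusted p = 0.0040).

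Among the 5 that were higher, RD20, a gene for a lipid-droplet protein, rose from 166, 143 and 383 to 9063, 2153 and 5347 (4.49, SE 0.55, adjusted p = 0.0017). ERD1, for a subunit of the chloroplast Clp protease, rose by 2.02 (SE 0.28, adjusted p = 0.0025). The late embryogenesis abundant genes LEA4-5 and LEA14 rose by 4.37 (SE 1.11, or 3.02 with the floor) and 0.83 (SE 0.24). COR15A, which encodes a protein that protects chloroplast membranes, rose by 2.69 (SE 0.85, adjusted p = 0.047), with 5000, 405 and 1019 under salt and 106 to 329 under mock treatment. The calls of LEA4-5, LEA14 and COR15A were lost without mock replicate 1 or 3 or salt replicate 3 (adjusted p = 0.054 to 0.15), those of LEA14 and COR15A also without mock replicate 2 (0.11 and 0.12), and those of LEA4-5 and COR15A also without salt replicate 1 (0.062 and 0.061). Without salt replicate 2, 8 of the 13 genes were higher.

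Stress transcription factors lay between the jasmonate and salicylic acid genes and the dehydration genes in how far salt replicate 2 moved. The replicate 2 median, divided by the mean of the medians of replicates 1 and 3, was 0.464 for them and 0.519 for ethylene genes. All 14 measured transcription factor genes (21 listed) were higher, with medians of 3.0, 1.36 and 2.86 on salt replicates 1, 2 and 3. Of these, 9 were named from the overexpressor tables, 3 from the wild-type salt tables and 2 through the annotation, so the full count leans on how they were named. ZAT12, a zinc finger gene of general stress, rose from 432, 234 and 718 to 9368, 3404 and 8142 (3.94, SE 0.48, adjusted p = 0.0017). Each salt signal was several times the highest mock signal. The NAC genes RD26, ATAF1 and ANAC055 rose by 2.35, 1.98 and 2.29, and DREB2A, which acts in drought and heat, by 2.33 (SE 0.47). RD26 had 5645, 1726 and 5172 in the salt arrays against 648 to 797 in the mock arrays, so replicate 2 was clearly raised but well below the other salt arrays. HB-7, an ABA-induced homeobox gene, had 1048, 375 and 810 against 266, 288 and 370, with replicate 2 barely above the highest mock array. Its change was 1.16 (SE 0.36, adjusted p = 0.043). MYB102 rose by 3.23 (SE 0.98, adjusted p = 0.042, or 2.37 with the floor), and its replicate 2 signal of 35.1 lay under 1 of the mock signals, 12.4, 43.4 and 8.04. The calls of HB-7 and MYB102 were lost without mock replicate 1 or 3 or salt replicate 1 or 3 (adjusted p = 0.075 to 0.14), and that of HB-7 also without mock replicate 2 (0.13). MYB15 went the other way, with 808, 969 and 1633 under salt and 4.48 to 49.0 under mock treatment, but it was named from the wild-type salt table. ZAT10 and WRKY6, named through the annotation, rose by 1.96 (SE 0.36) and 2.85 (SE 0.56).

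Genes for moving ions, nitrate and water changed in both directions. Of 8 measured genes of nitrate and chloride transport and assimilation (17 listed), 4 were higher and 2 lower. NRT1.8 takes nitrate out of the xylem sap and NRT1.5 loads it. NRT1.8 rose from 84.7, 47.7 and 209 to 16342, 5240 and 14446, while NRT1.5 fell from 1381, 1446 and 1453 to 326, 533 and 283. NRT1.5 showed no overlap between salt and mock arrays, which for NRT1.8 was a condition of its choice among the largest increases. NRT1.8 changed by 6.83 (SE 0.59, adjusted p = 0.00054) and NRT1.5 by -1.96 (SE 0.23, adjusted p = 0.0014). SLAH3, an anion channel gene, rose by 3.83 (SE 0.39), the phloem nitrate transporter gene NRT1.7 by 2.36 (SE 0.38) and NRT3.1, from the wild-type salt table, by 1.59 (SE 0.18). Nitrite reductase (NIR1) fell by 1.27 (SE 0.24, adjusted p = 0.0077). Nitrate reductase (NIA1) had 4020, 3291 and 3982 against 533, 3358 and 2095, so replicate 2 lay inside the mock range. It did not pass (-1.27, SE 0.59, adjusted p = 0.15), and without salt replicate 2 it did (-1.83, adjusted p = 0.017). CAX3, a vacuolar cation exchanger gene, rose from 287, 415 and 491 to 5653, 3306 and 5466 (3.59, SE 0.26). KEA1, a potassium exchanger gene of the chloroplast envelope, had 1335 to 1773 against 238, 405 and 248 (-2.43, SE 0.22). The aquaporin genes TIP2;2 and PIP2;4 of the vacuole and plasma membrane fell as well (-2.53, SE 0.26, and -1.72, SE 0.25). Only these 2 of 18 listed aquaporin genes had a named probe set, and both were named from the overexpressor tables.

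Most measured genes of the antenna and the thylakoid lumen were lower under salt, most photosystem genes did not pass, and the salt arrays differed widely. Of 5 measured antenna genes (20 listed) 4 were lower. LHCB4.2 and LHCB4.3 encode minor antenna proteins of photosystem II, and LHCA6 an antenna protein of photosystem I. LHCB4.2 had 12230, 12079 and 15138 in the mock arrays and 2182, 9771 and 3427 in the salt arrays. Replicate 2 was below every mock array but much closer to them than to the other salt arrays. Its change was -1.65 (SE 0.49, adjusted p = 0.037). LHCB2.3 had 4612, 3327 and 6865 against 411, 2958 and 1052, a change of -2.12 (SE 0.64, adjusted p = 0.040). LHCB4.3 and LHCA6 fell too (-2.43, SE 0.44, and -2.08, SE 0.39). LHCB4.1 did not pass (-0.51, SE 0.26, adjusted p = 0.19) and did so without salt replicate 2 (-0.73, adjusted p = 0.025). The calls of LHCB4.2 and LHCB2.3 were lost without any mock array and without salt replicate 1 or 3, with adjusted p between 0.065 and 0.13.

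Of 6 measured photosystem and ATP synthase subunit genes (28 listed) 2 were lower, and all 6 were lower without salt replicate 2. The median was -1.62 in replicate 1, -0.18 in replicate 2 and -0.93 in replicate 3. PSAD-2, a stromal subunit of photosystem I, had 8227, 7291 and 9360 against 1367, 6779 and 2097 (-1.62, SE 0.52, adjusted p = 0.049). PSAN, a lumenal subunit, fell by 1.25 (SE 0.38, adjusted p = 0.041). Both calls were lost without any array other than salt replicate 2, with adjusted p between 0.063 and 0.15. PSAE-1, another stromal subunit, had 14845, 15240 and 16101 in the mock arrays and 5573, 14438 and 8597 under salt. Its change was -0.80 (adjusted p = 0.10), and -1.15 (adjusted p = 0.0025) without replicate 2. The summed signal of the 6 genes was 68971 to 77561 in the mock arrays and 24001, 65414 and 37334 in salt replicates 1, 2 and 3.

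Of 10 measured genes for thylakoid lumen proteins and the NDH complex (15 listed) 9 were lower, with medians of -3.09, -1.01 and -2.09. The overexpressor tables named 7 of them and the annotation 3. PNSL3 and FKBP16-2 are given above. PNSL2 fell from 3753, 3764 and 3687 to 209, 1192 and 448, and PNSL1, with 2862 to 3067 in the mock arrays, to 354, 1119 and 639. PNSL2 changed by -2.95 (SE 0.53, adjusted p = 0.0064) and PNSL1 by -2.21 (SE 0.36, adjusted p = 0.0045). PSB27, a factor in the assembly of photosystem II, fell by 1.33 (SE 0.33, adjusted p = 0.021), a call lost without salt replicate 3 (adjusted p = 0.074) or any mock array (0.065 to 0.077). PGRL1B, which serves cyclic electron flow by another route, had a positive change that did not pass (0.52, SE 0.18, adjusted p = 0.063), and without salt replicate 2 it passed as higher (0.67, adjusted p = 0.010).

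Carbon fixation and chlorophyll synthesis moved in the same direction. Of 6 measured genes of the Calvin cycle and photorespiration (23 listed) 5 were lower, with medians of -2.86, -1.02 and -2.03. SBPASE, a Calvin cycle phosphatase, had 10858, 11823 and 10610 against 1084, 5594 and 2673 (-2.13, SE 0.51, adjusted p = 0.018). Phosphoribulokinase (PRK) had 12608, 13217 and 13282 against 1777, 9112 and 4148 (-1.68, SE 0.51, adjusted p = 0.041). The salt arrays of both genes stood in the order replicate 1, 3, 2 from the lowest up. CP12-2, whose product regulates PRK, fell (-2.51, SE 0.46), as did the photorespiration gene HPR (-1.97, SE 0.39). Rubisco activase (RCA) had 20082 to 22906 in the mock arrays and 6892, 20119 and 12552 under salt, so replicate 2 overlapped with the mock arrays. It did not pass (-0.86, SE 0.36, adjusted p = 0.11), and without replicate 2 it did (-1.23, adjusted p = 0.0058). The calls of SBPASE and PRK were lost without any mock array or salt replicate 3 (adjusted p = 0.056 to 0.12).

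Chlorophyll synthesis had 7 measured genes (18 listed), and 6 were lower. In pathway order, GSA1 and HEMB1 act early, HEME2 in the middle, and CHLI2, GUN4 and CHLM at the magnesium branch. GSA1 and HEMB1 had small changes of -0.42 (SE 0.13, adjusted p = 0.047) and -0.22 (SE 0.11, adjusted p = 0.17). HEME2 had 3286, 3069 and 3015 against 617, 1754 and 848 (-1.68, SE 0.34, adjusted p = 0.0095). CHLI2, a subunit of magnesium chelatase, had 1323, 1313 and 1471 against 183, 535 and 222 (-2.29, SE 0.36, adjusted p = 0.0040). Its activator gene GUN4 and the methyltransferase gene CHLM, the next step, fell (-1.75, SE 0.39, and -1.66, SE 0.41). PORB, which makes chlorophyllide in the light, fell by 0.72 (SE 0.23, adjusted p = 0.049). The calls of GSA1 and PORB were lost without any array other than salt replicate 2 (adjusted p = 0.080 to 0.17), that of CHLM without any mock array or salt replicate 3 (0.063 to 0.075), and that of GUN4 without mock replicate 3 (0.051) or salt replicate 3 (0.058).

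**Figure D3:**
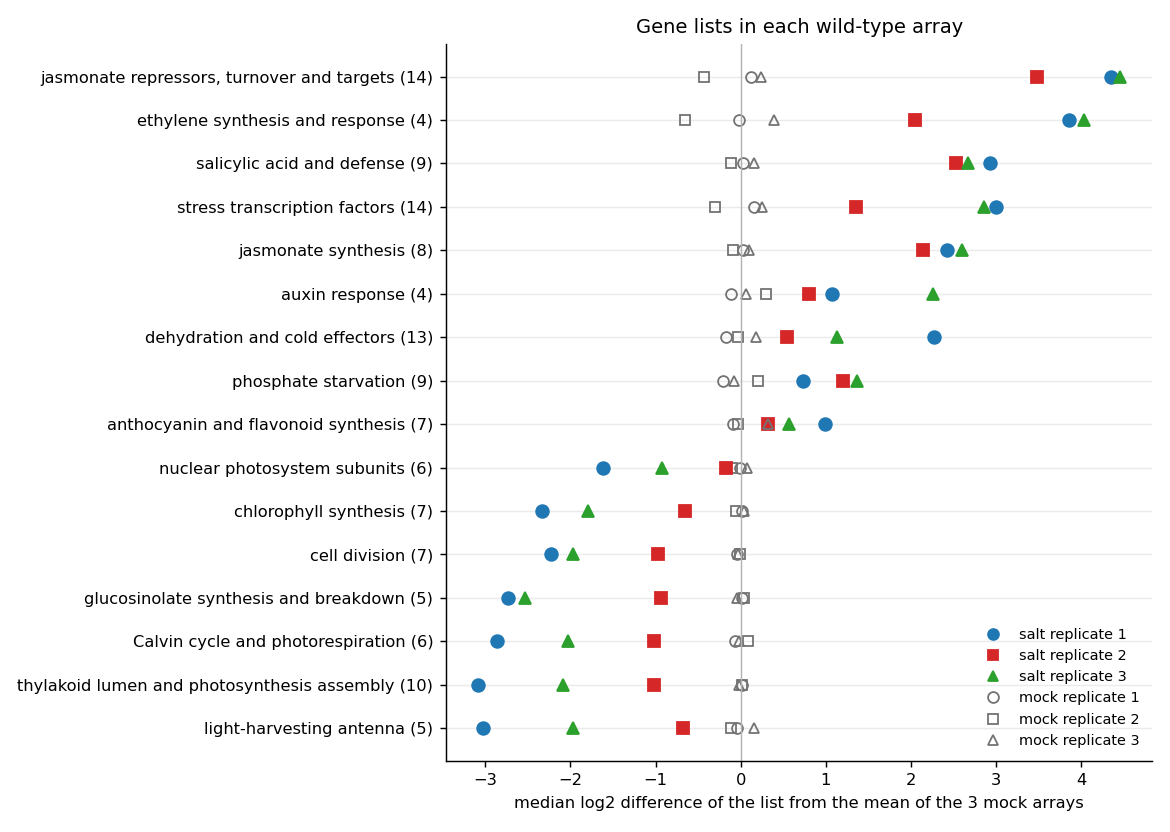
Each row is a gene list with at least 4 measured members (number in brackets) whose members past the test lay mainly in 1 direction. The x axis gives the median log2 difference of its members from the mean of the mock arrays on each of the 3 mock arrays (open) and 3 salt arrays (filled). Salt replicate 2 (red squares) lies near the other salt arrays for the jasmonate and salicylic acid lists. It falls short of both for the dehydration and chloroplast lists, where replicates 1 and 3 also lie apart from each other.

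Among secondary compounds, glucosinolate genes fell and flavonoid genes were divided. All 5 measured glucosinolate genes (17 listed) were lower, 3 of them named from the overexpressor tables and 2 through the annotation. MYB28, the regulator of the aliphatic branch, had 1096, 1111 and 1036 against 86.4, 311 and 99.8 (-2.96, SE 0.44, adjusted p = 0.0032). MAM1 and MAM3, which lengthen the methionine side chain, fell (-2.53, SE 0.60, and -1.65, SE 0.50), and so did BCAT4, the first step (-1.97, SE 0.49). In MAM3 the salt signals were 455, 2259 and 773 against 2752 to 3031, with replicate 2 close to the mock arrays. The calls of MAM1, MAM3 and BCAT4 were lost without any mock array or salt replicate 3 (adjusted p = 0.058 to 0.13). Of 7 measured flavonoid genes (19 listed), DFR, UF3GT and AT5MAT of the anthocyanin branch were higher, by 1.28 (SE 0.25), 1.22 (SE 0.24) and 0.75 (SE 0.20). FLS1, which draws the same precursors into flavonols, was lower (-1.51, SE 0.39, adjusted p = 0.023). DFR had 4067, 2245 and 3444 in the salt arrays and 1076 to 1628 in the mock arrays. The call of FLS1 was lost without any array but salt replicate 2 (adjusted p = 0.062 to 0.085), and that of AT5MAT without mock replicate 2 or 3 or salt replicate 1 (0.062 to 0.089).

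All 7 measured genes of cell division (22 listed) were lower, with medians of -2.23, -0.97 and -1.97. The overexpressor tables named 5 of them and the annotation 2. KN, the syntaxin gene of the cell plate, fell from 1140, 1299 and 1185 to 184, 592 and 257 (-1.99, SE 0.38, adjusted p = 0.0078). The 3 salt signals were far apart and all below the mock signals. The Aurora kinase genes AUR1 and AUR2 fell (-1.74, SE 0.27, and -1.71, SE 0.31), and so did the cyclin genes CYCA1;1 (-1.7, SE 0.35) and CYCB2;4 (-2.47, SE 0.54). The call of CYCB2;4 was lost without mock replicate 1 or 2 or salt replicate 3 (adjusted p = 0.052 to 0.056), and that of CYCA1;1 without mock replicate 2 (0.050).

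Genes of wall loosening changed in both directions. Of 11 measured genes (20 listed) 4 were higher and 4 lower. The expansin genes EXPA4, EXPA6, EXPA8 and EXPA15 fell, with changes of -1.83, -2.28, -1.84 and -0.92, while the expansin-like genes EXLA1 and EXLA2 rose by 3.07 (SE 0.30) and 2.45 (SE 0.25). The root expansin genes EXPA7 and EXPA18, listed as root markers, did not pass (0.37, adjusted p = 0.20, and -0.21, adjusted p = 0.59). TCH4 and XTH24, genes for enzymes that cut and rejoin xyloglucan, rose by 2.39 (SE 0.33) and 1.78 (SE 0.22). EXPA8 had 124, 141 and 120 under salt against 405, 502 and 469, and EXLA2 had 473, 559 and 744 against 80.2 to 135. In these genes replicate 2 matched the other salt arrays, whereas in EXPA4, with 221, 621 and 343 against 1159 to 1523, it did not. Of 4 measured auxin response genes (20 listed) 2 were higher and 1 lower. GH3.3, which conjugates auxin, rose from 188, 232 and 93.8 to 5893, 2033 and 7313 (4.80, SE 0.51), its relative GH3.5 had a small increase (0.95, SE 0.30) whose call was lost without any array but salt replicate 2 (adjusted p = 0.10 to 0.14), and the influx carrier gene AUX1 fell by 1.74 (SE 0.32).

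Genes of dark and sugar starvation changed in both directions. Of 11 measured genes of dark and sugar starvation (16 listed) 3 were higher and 5 lower. Asparagine synthetase (ASN1) rose from 206, 53.3 and 119 to 1502, 1930 and 2068 (4.05, SE 0.44, adjusted p = 0.0011), with replicate 2 between the other salt arrays. The galactosidase gene BGAL4 fell by 2.8 (SE 0.31). Of 4 measured genes of chlorophyll breakdown and senescence (15 listed) 1 was higher and 1 lower. The lower one was SEN1, a dark-induced gene, which fell from 2722, 2256 and 1838 to 123, 536 and 245 (-3.15, SE 0.47), and the higher one was SAG101 (1.30). Of 9 measured phosphate starvation genes (14 listed) 6 were higher and none lower, with medians of 0.74, 1.21 and 1.37 on the 3 salt arrays. All were named from tables of responsive genes, 6 from the overexpressor tables, 2 from the mock comparison of both genotypes and 1 from the wild-type salt tables. In this list replicate 2 exceeded replicate 1. The phosphatase genes PS2 and PAP17 rose by 1.82 (SE 0.13) and 1.35 (SE 0.20). MGD2 and MGD3, which make galactolipids, had 343, 744 and 458 and 369, 592 and 685 under salt, against 128 to 305 and 207 to 297 under mock treatment. Their calls (adjusted p = 0.027 and 0.019) were lost without mock replicate 1 or 3 or salt replicate 3 (0.055 to 0.096).

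Other stress lists had few measured genes. Of 4 genes of raffinose and trehalose metabolism 1 was higher and 1 lower, of 5 reactive oxygen enzymes 2 were higher and 3 lower, and of 2 heat shock genes 1 was higher. GOLS1, which starts raffinose synthesis, rose from 105, 121 and 157 to 833, 1041 and 700 (2.75, SE 0.21, adjusted p = 0.00036), and replicate 2 was the highest. AOX1A, the alternative oxidase of mitochondria, rose from 1609, 1309 and 2292 to 14062, 7832 and 15505 (2.82, SE 0.30). TAPX, the ascorbate peroxidase of thylakoids, had 1386 to 1580 against 177, 492 and 307 (-2.32, SE 0.33), and CSD2, a superoxide dismutase of chloroplasts, fell by 0.92 (SE 0.19). The chaperone gene HSP90.1 rose by 1.73 (SE 0.34), with 1414, 505 and 702 under salt against 224 to 265 under mock treatment.

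The change of salt replicate 2 was also set against the other salt arrays gene by gene. For each probe set of the yardstick with a mean change of replicates 1 and 3 above 3-fold, the log2 change of replicate 2 was divided by that mean. A ratio of 1 would be an equal change. Over 945 such probe sets that rose, the median ratio was 0.683, with 171 (18.1%) at 0.9 or more and 205 (21.7%) under 0.5. Over 919 that fell, the median was 0.512, with 69 (7.51%) at 0.9 or more and 440 (47.9%) under 0.5. The median ratio was thus lower for the decreases than for the increases, a difference that was not tested. The quartiles of the ratio were 0.525 and 0.837 for the rising and 0.386 and 0.662 for the falling probe sets. The same ratio taken for replicate 1 had medians of 1.16 and 1.36, with quartiles of 0.965 and 1.36 and of 1.12 and 1.58. For replicate 3 the medians were 1.16 and 1.05, with quartiles of 1.07 and 1.26 and of 0.886 and 1.2. The quartiles of replicate 1 thus lay at least as far apart as those of replicate 2, around a higher median. Relative to the median they lay closer together. The probe sets differed as well, with 819 rising and 532 falling for replicate 1, whose ratio has replicate 2 in its denominator.

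The gene lists fell on both sides of these medians, although their members entered at a lower limit than the 3-fold of the yardstick. Among list members with a mean change of replicates 1 and 3 above 2-fold, the median ratio was 0.867 over 8 genes of jasmonate synthesis (0.649 to 1.02), 0.842 over 14 jasmonate repressors, turnover genes and targets (0.483 to 1.03), and 0.899 over 8 genes of salicylic acid and defense (0.606 to 1.08). It was 0.295 over 7 dehydration genes (0.0513 to 0.665) and 0.531 over 14 stress transcription factors (0.189 to 0.958). The lowest jasmonate synthesis gene was thus only just under the highest dehydration gene. Among lists that fell, the median ratio was 0.124 over 5 photosystem genes, 0.331 over 4 antenna genes, 0.399 over 6 Calvin cycle genes, 0.423 over 9 thylakoid lumen genes and 0.396 over 7 cell division genes. It was 0.360 over 4 chlorophyll synthesis genes and 0.282 over 5 glucosinolate genes. Among lists with a positive median change, it was also 0.956 over 4 phosphate starvation genes, 0.567 over 4 auxin genes and 0.395 over 4 flavonoid genes. No test was made of these differences between lists, which rest on 1 array. Across all 32 lists, the medians of the 3 salt arrays spanned a narrower range in the overexpressor than in the wild type in 28. They were 1.92 to 2.12 in the overexpressor for dehydration, 2.45 to 2.82 for jasmonate synthesis and -1.72 to -1.66 for antenna genes. The 4 exceptions were salicylic acid and defense (1.79 to 2.26, against 2.52 to 2.93 in the wild type), nitrate and chloride transport, sodium, potassium and proton transport, and the reference genes.

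**Figure D4:**
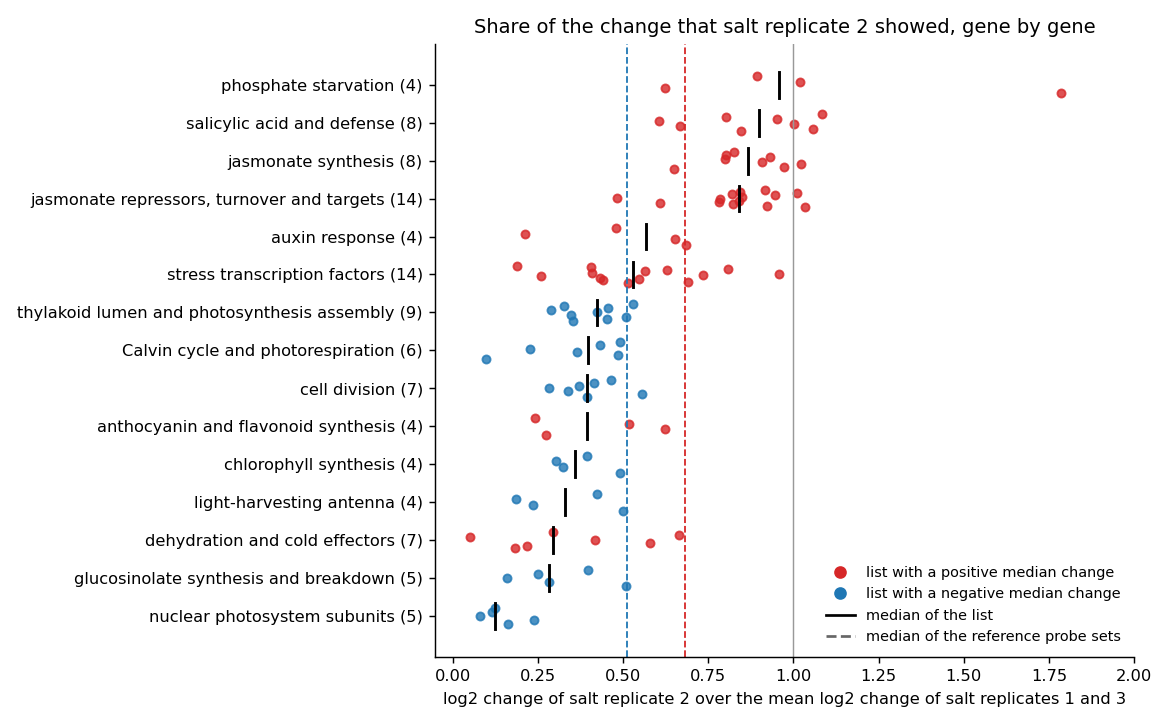
Each point is a list member whose mean log2 change in salt replicates 1 and 3 exceeded 1. The x axis gives the change of salt replicate 2 divided by that mean, black bars mark list medians, and the number of members is in brackets. Dashed lines mark the medians over the yardstick probe sets above 3-fold that rose (0.683, red) and fell (0.512, blue). The medians of the jasmonate and salicylic acid lists lie to the right of both lines, and those of the dehydration and chloroplast lists to the left.

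Genes at the extremes of the ratio among called genes were chosen by that ratio and are given without a test. The lowest were AT3G10080 (0.36), AT5G64230 (0.37), AT2G37870 (0.38), UGT73C7 (0.39), HEME2 (0.39) and emb2726 (0.40). AT2G37870 had 5473, 465 and 2608 in the salt arrays against 125 to 136 in the mock arrays. The highest were AT1G73120 (1.81), AT1G72070 (1.55), AT4G22610 (1.46), AT5G23840 (1.46), JAL23 (1.44) and AT1G03020 (1.44). JAL23, a jacalin lectin gene, had 1209, 2286 and 967 against 131 to 291, so replicate 2 had the largest increase. The ratio of AT1G73120 rests on salt signals of 13.7, 1.06 and 16.0, at the bottom of the range, where the floor would make them equal.

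Markers of organs were checked in every array, since samples were labelled whole seedlings. Root and shoot markers were both present. The root markers included BGLU23, a glucosidase of root endoplasmic reticulum bodies, with 13707 to 18990 in the salt arrays and 14637 to 17260 in the mock arrays (-0.02, SE 0.20, adjusted p = 0.95). Of 5 measured root markers (15 listed) CASP1, of the endodermal barrier, and AGL42 were lower (-1.35, SE 0.24, and -1.27, SE 0.35), and the call of AGL42 was lost without any array but salt replicate 2 (adjusted p = 0.058 to 0.12). The summed signal of the 5 root markers was 16305 to 18965 in the mock arrays and 14771, 20485 and 15378 in salt replicates 1, 2 and 3, so that replicate 2 was the highest of all 6 arrays. BGLU23 made up most of each sum, which is therefore close to a reading of that 1 probe set. Of 4 measured markers of shoot meristem, leaf and guard cell (12 listed) AS1 was lower (-1.59, SE 0.26), and their sum was 1096 to 1397 in the mock arrays and 492, 670 and 387 in the salt arrays. The meristem marker CLV3 stayed at 1.61 to 18.5, within the lowest signals of all arrays. The part of organ proportions in the difference between salt arrays was not tested. The 4 measured reference genes did not pass (4 of 12 listed), with changes between -0.35 and 0.26.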

How the data were processed

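The deposited values are MAS5 signal intensities on a linear scale, 1 for each probe set and array, which the authors scaled to a common trimmed mean. They held 22810 probe sets, of which 64 Affymetrix controls were left out. No detection calls entered, which means that a low signal may be background. The number of arrays limits the precision. The log2 signals of the 6 wild-type arrays were fitted with limma 3.58.1 (R 4.3.3) with variances following an intensity trend. Tests were two-sided, with Benjamini-Hochberg adjustment over 22746 probe sets, and SE is limma's standard error. A fit restricted to these arrays was used because the salt arrays spread more widely than the other groups. Probe sets were paired with genes through the platform annotation (13512) or only through the study's tables (698), and 7978 had no gene, 557 several and 1 a conflict.

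Genes named were the 12 most positive and 12 most negative changes, the 8 in each direction with the largest change on their weakest salt array, the 6 lowest and 6 highest ratios of replicate 2, and up to 4 members of each of 32 lists with the smallest adjusted p. The groups before the lists were taken from called probe sets without overlap, paired with 1 gene and above the median signal in the higher group. A further 52 of the 171 genes named are list members chosen for their place in a pathway or for their values on single arrays, the latter after these were seen. The members and lists were chosen with earlier results of these data known. The fits were repeated after median centring or quantile normalization, with a floor at the 20th percentile or a filter at the 40th, without the trend, with array quality weights, over all 12 arrays, with a replicate block, at other limits, with the methods' t-test (unequal variances) and without each array. The list counts without genes named from the wild-type salt tables, and the ratio for replicates 1 and 3, were added after seeing the data.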

Additional observations from a re-analysis of the deposited data

How the results depend on the processing

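The counts of 862 higher and 659 lower probe sets stayed within 1.5 times under quantile normalization, median centring, the floor, the filter and all 12 arrays. They were 251 and 107 without the intensity trend, and array quality weights gave 1206 lower. The methods' t-test gave 470 and 203 at their limits without adjustment and 0 and 0 after it (992 and 726 at 0.05 unadjusted, with 3-fold kept), and no listed gene passed it after adjustment (0 higher, 0 lower). An adjusted p under 0.05 with a 2-fold limit gave 1895 and 2285, and with no fold limit 3089 and 3834. Leaving out 1 array gave 321 to 1245 higher and 83 to 1404 lower, with 404 and 116 without mock replicate 1, 342 and 83 without mock replicate 2, 469 and 162 without mock replicate 3, 634 and 417 without salt replicate 1, and the counts given above without salt replicate 2 or 3. Listed genes numbered 85 higher and 65 lower. The lower count was 42 without the trend and 39 to 72 with 1 array left out (40, 39 and 41 without mock replicates 1, 2 and 3, and 40 without salt replicate 3), and the higher count 74 to 92. The slope of salt replicate 2 lay between 0.565 and 0.619 under its alternatives, below those of replicates 1 (0.912 to 0.979) and 3 (0.820 to 0.898). The median change over the median overexpressor change was 0.663 for higher and 0.497 for lower probe sets in replicate 2, 1.01 and 1.05 in replicate 1, and 0.992 and 0.858 in replicate 3. Of 180 listed or named genes that passed, none changed direction, and 33 no longer passed without the trend and 19 to 36 without a single array other than salt replicate 2, whose removal lost none. BGLU23, close to 0, turned positive with quantile normalization (0.0396) or median centring (0.0242) and lay between -0.161 and 0.0743 with 1 array left out, EXPA18 between -0.442 and 0.0848, and CLV3 was -0.0122 with the floor. Mock and salt arrays share only a replicate number. Deviations of same-numbered arrays correlated at 0.02, 0.01 and 0.04, and with the number as a block 861 were called higher and 585 lower, and 6 of the 180 genes no longer passed. What causes these shifts was not tested.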
